A study of Mus musculus with 9 samples.

Results

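The 9 genes described here mark the B lineage and its precursors: Cd79a, Cd79b, Ms4a1, Vpreb1, Igll1, Rag1, Rag2, Pax5 and Ebf1. They were taken by symbol from the 22183 genes of the deposited table, each symbol matched 1 gene, and all 9 passed the filter on low counts that left 14211 genes for testing. The data are polyadenylated RNA of mouse tibia, with 3 groups of 3 libraries. In the Ti+I-OG group the tibiae had received titanium particles and then, for 5 weeks, I-OG, a gel for injection that is built from natural polymers and carries irisin, a muscle hormone. The Ti group had received titanium particles, a stand-in for the wear debris around implants that work loose where there is no infection. The naive group had received nothing. The sources used here do not give strain, sex, age or the time after the particles. Without a group given the procedure alone, or the gel without irisin, effects of the particles and of the procedure cannot be told apart, nor those of irisin and of its gel. Whether the 3 libraries of a group stem from separate animals is not stated. The p-values therefore only set group differences against the scatter of these libraries, part of which may be technical.

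B cells of adult mice are made in bone marrow, so a whole tibia holds every stage from the pro-B cell to the mature B cell. Ebf1 and then Pax5, 2 transcription factors, set up and lock in the B-cell programme. Rag1 and Rag2 together form the recombinase that cuts and joins immunoglobulin gene segments. Vpreb1 and Igll1 make the surrogate light chain, which pairs with a newly made heavy chain to form the pre-B-cell receptor. Cd79a and Cd79b are the signalling chains of that receptor and of the mature B-cell receptor. Ms4a1, which encodes CD20, appears later, on cells near the end of this path and on mature B cells.

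The total estimated count per library lay between 16256081 and 24766502, so that 3 counts, taken as the floor, correspond to 0.121 to 0.185 CPM, the count scaled to library size with edgeR's trimmed mean of M-values. Bone was present in all 9 libraries: the 10 osteoblast genes listed for this check all had counts, and summed to 4110 to 6180 CPM in Ti+I-OG, 6380 to 9060 CPM in Ti and 1470 to 3570 CPM in naive. Naive replicate 3 stood apart. The mean over the 9 B-lineage genes of log2 CPM, centred on each gene's mean over the libraries, was -1.45 in that library, against 0.16 to 0.25 in Ti+I-OG, 0.20 to 0.43 in Ti, and -0.34 and 0.28 in the other two naive libraries. On the same scale the proliferation list lay between 0.01 and 0.04 over the 3 naive libraries, and the T-cell list was at -0.27 in replicate 3. The fold changes and calls of the 9 genes against naive are therefore given with and without replicate 3. Globin genes took 15.1 to 15.9% of all counts in Ti+I-OG, 6.68 to 9.98% in Ti and 2.95 to 9.47% in naive. With globin and mitochondrially encoded genes left out before scaling, no B-lineage gene changed its side of the threshold in any of the 3 comparisons.

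Levels between genes were compared in FPKM, fragments per kilobase, scaled for depth, which corrects for transcript length. The signalling chains stood highest, with a mean over the 9 libraries of 68.6 FPKM for Cd79b (ENSMUSG00000040592) and 60.7 FPKM for Cd79a (ENSMUSG00000003379). The surrogate light chain followed, with 27.7 FPKM for Igll1 (ENSMUSG00000075370) and 17.0 FPKM for Vpreb1 (ENSMUSG00000059305), and then Ms4a1 (ENSMUSG00000024673) with 14.5 FPKM. The transcription factors and recombinase genes were lower, with 6.08 FPKM for Pax5 (ENSMUSG00000014030), 4.30 for Rag1 (ENSMUSG00000061311), 3.86 for Ebf1 (ENSMUSG00000057098) and 2.88 for Rag2 (ENSMUSG00000032864). Most neighbours in this order kept it in each library. The exceptions were Cd79b above Cd79a in 8 of 9 libraries, Vpreb1 above Ms4a1 in 6 of 9 and Rag1 above Ebf1 in 6 of 9, so that these pairs were not told apart by every library.

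Some of these values carry a limit from the annotation. The library kit kept no record of the transcribed strand, and reads of overlapping genes cannot be told apart: exons of Rag1 and Rag2 overlap B230118H07Rik, those of Vpreb1 overlap Top3b, and those of Pax5 overlap Gm12462 and 5730488B01Rik. Their values are uncertain to that extent. The estimated count of Vpreb1 was not a whole number in 9 of 9 libraries, so part of its reads was shared out between transcripts; Vpreb2 is a near-identical copy. The transcript length implied by count and FPKM ran from 3.86 to 6.85 kb for Pax5 over the libraries, a range of 1.78 times, from 2.07 to 2.54 kb for Rag2 and from 5.29 to 5.91 kb for Ebf1, while the other 6 genes varied by at most 1.01 times. For Pax5 in particular, CPM and FPKM do not measure the same thing.

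The promoters of 3 of the genes are shown because they hold the E-box CAGGTG, a motif bound by E-proteins, the factors that act with Ebf1 early in the B lineage. RefSeq sequences (build GRCm38.p6) of 250 bases before to 50 after a start were at hand for 7 of the 9 genes, in 8 windows, Cd79b and Ms4a1 having none. CAGGTG, or CACCTG where it reads on the other strand, is in capitals, and bases within annotated exons are left out.
Cd79a, chr7:24897247-24897380, plus strand: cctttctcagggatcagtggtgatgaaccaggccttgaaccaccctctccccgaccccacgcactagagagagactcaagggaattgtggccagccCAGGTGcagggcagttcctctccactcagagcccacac
Igll1, chr16:16863986-16864235, minus strand: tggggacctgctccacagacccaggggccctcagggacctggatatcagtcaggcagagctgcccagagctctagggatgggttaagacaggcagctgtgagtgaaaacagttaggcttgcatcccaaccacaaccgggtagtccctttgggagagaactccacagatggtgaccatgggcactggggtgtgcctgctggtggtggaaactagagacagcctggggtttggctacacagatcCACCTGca
Rag1, chr2:101649533-101649782, minus strand: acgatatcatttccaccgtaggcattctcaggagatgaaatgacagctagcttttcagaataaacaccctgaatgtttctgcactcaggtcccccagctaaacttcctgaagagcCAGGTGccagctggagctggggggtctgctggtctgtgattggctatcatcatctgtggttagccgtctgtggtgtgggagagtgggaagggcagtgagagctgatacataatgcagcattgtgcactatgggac
The motif lay 154 bases before the start of Cd79a, 8 bases before that of Igll1 and 135 bases before that of Rag1. The Vpreb1 window also held it. Thus 4 of the 8 windows had a match, against 20.2% of the 32851 promoter windows of the same 300 bases. A palindromic Ebf1 motif, TCCC and GGGA parted by any 2 bases and the same on both strands, matched none of the 8 windows, against 0.904% of all windows. Rag1 and Rag2 neighbour each other on chromosome 2, and Vpreb1 and Igll1 lie close together on chromosome 16. A match of letters is a description of the window and no sign that a factor is bound there.

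The receptor chains had their lowest values in naive tibia. Cd79a had 86.2, 113 and 109 CPM in Ti+I-OG, 98.3, 92.8 and 121 CPM in Ti, and 57.9, 91.8 and 34.3 CPM in naive (replicates 1, 2 and 3, as in all such lists here). Its partner Cd79b had 97.4, 110 and 98.1 CPM in Ti+I-OG, 83.5, 97.2 and 98.8 CPM in Ti, and 59.8, 80.5 and 32.0 CPM in naive. For both genes every Ti library lay above every naive library, and for Cd79b every Ti+I-OG library did so too, while Ti+I-OG and Ti overlapped. Ms4a1 had 39.6, 49.5 and 47.2 CPM in Ti+I-OG, 62.6, 64.2 and 49.4 CPM in Ti, and 28.3, 50.8 and 12.5 CPM in naive. The groups overlapped in each pairing: naive replicate 2 lay above all 3 Ti+I-OG libraries and within the range of Ti, and Ti+I-OG and Ti overlapped by 49.5 CPM in Ti+I-OG replicate 2 against 49.4 CPM in Ti replicate 3.

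The surrogate light chain genes had their highest values in Ti+I-OG. Vpreb1 had 19.3, 16.8 and 15.7 CPM in Ti+I-OG, 13.5, 13.6 and 15.5 CPM in Ti, and 8.70, 13.8 and 2.43 CPM in naive. All 3 Ti+I-OG libraries lay above all libraries of the other groups, the nearest pair of values being 15.7 CPM in Ti+I-OG and 15.5 CPM in Ti. Igll1 had 37.1, 34.3 and 24.3 CPM in Ti+I-OG, 21.4, 22.8 and 30.5 CPM in Ti, and 19.1, 27.3 and 3.73 CPM in naive. Its groups overlapped in each pairing, and it varied most among the naive libraries, 7.33 times between highest and lowest.

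The recombinase genes did not share that order. Rag1 had 24.9, 31.0 and 27.0 CPM in Ti+I-OG, 35.2, 28.0 and 35.3 CPM in Ti, and 22.9, 40.0 and 12.4 CPM in naive. Rag2 had 5.60, 6.25 and 5.89 CPM in Ti+I-OG, 8.78, 7.22 and 9.90 CPM in Ti, and 4.40, 7.47 and 2.47 CPM in naive. All 3 Ti+I-OG libraries lay below all 3 Ti libraries for Rag2 and overlapped them for Rag1, and the highest Rag1 value of all was that of naive replicate 2. Because Rag1 and Rag2 also act in T-cell precursors, the T-cell list was read beside them: the 11 tested genes of its 12 summed to 55.5 to 70.3 CPM in Ti+I-OG, 59.6 to 67.4 CPM in Ti and 55.3 to 91.6 CPM in naive, and none passed the test in any comparison. The remaining gene, Ptcra, the pre-T-cell receptor chain that marks T-cell precursors, had no count in any of the 9 libraries. That allows up to the floor of 0.121 to 0.185 CPM, which holds no scaling factor.

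The transcription factors varied least among the naive libraries. Pax5 had 27.9, 26.8 and 32.6 CPM in Ti+I-OG, 31.0, 24.9 and 38.3 CPM in Ti, and 27.5, 40.0 and 16.9 CPM in naive, with overlap in each pairing. Ebf1 had 20.5, 18.1 and 24.8 CPM in Ti+I-OG, 24.8, 25.9 and 28.0 CPM in Ti, and 18.5, 24.0 and 11.3 CPM in naive. Every Ti library lay above every naive library for Ebf1, and the highest Ti+I-OG library was level with the lowest Ti library at 24.8 CPM as printed, just below it before rounding. Among the naive libraries the highest value was 2.12 times the lowest for Ebf1 and 2.37 times for Pax5, the smallest ratios of the 9 genes, against 4.05 times for Ms4a1 and 5.69 times for Vpreb1. Within Ti+I-OG these ratios were 1.12 to 1.53 and within Ti 1.13 to 1.54.

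**Figure D1:**
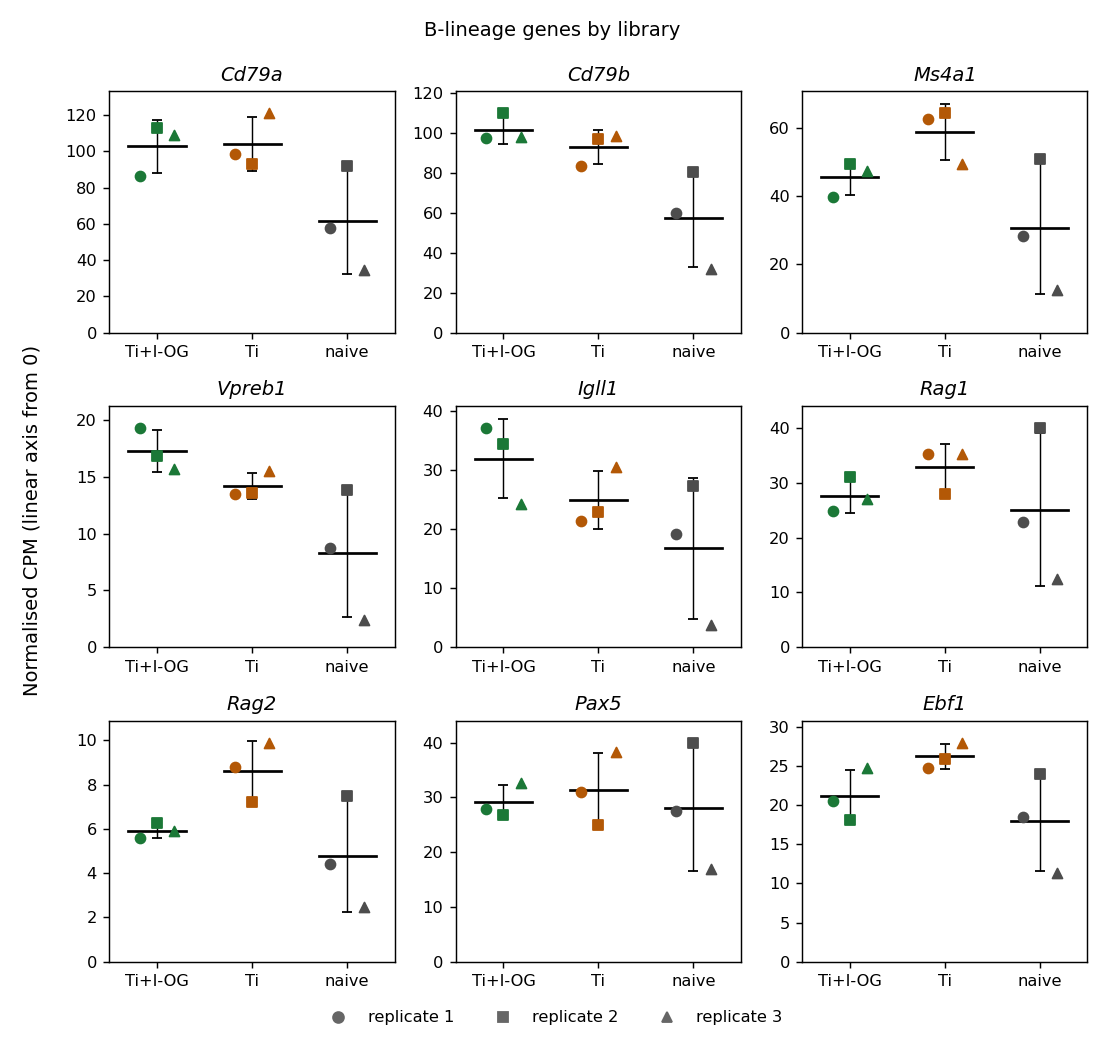
Normalised CPM of each of the 9 genes in every library, by group, with 1 point per library, a line for the mean and a bar for the SD (n = 3). Naive replicate 3 is the lowest library for each gene, from 2.43 CPM for Vpreb1 to 34.3 CPM for Cd79a, and the naive points spread more widely than those of Ti+I-OG or Ti.

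Titanium particles against untreated bone. All 9 genes had a higher fitted level in Ti than in naive, but none passed the test. The log2 fold change was largest for Ms4a1 at 0.95 (SE 0.357, adjusted p = 0.123 in edgeR's quasi-likelihood test with Benjamini-Hochberg adjustment over 14211 genes), for Rag2 at 0.85 (SE 0.321, adjusted p = 0.122) and for Vpreb1 at 0.77 (SE 0.417, adjusted p = 0.255). The signalling chains followed with 0.76 for Cd79a (SE 0.276, adjusted p = 0.112) and 0.70 for Cd79b (SE 0.251, adjusted p = 0.110). Igll1 had 0.58 (SE 0.481, adjusted p = 0.460), Ebf1 0.55 (SE 0.232, adjusted p = 0.154), Rag1 0.39 (SE 0.312, adjusted p = 0.446) and Pax5 0.16 (SE 0.263, adjusted p = 0.722). In bulk tissue, fewer cells of a type and less RNA per cell cannot be told apart.

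Thus 0 of 9 genes were called between Ti and naive, against 6.43% of all tested genes (4.05% higher and 2.39% lower in Ti). DESeq2, limma-voom and limma on FPKM also called 0. In either direction DESeq2 called 12.4% of the genes with an adjusted p, and limma-voom 6.23% of all genes. Limma called 3.83% on log2(FPKM + 0.1) and 3.91% on log2(FPKM + 1). An unadjusted edgeR p under 0.05 in the higher direction was reached by 5 of 9, namely Cd79a, Cd79b, Ms4a1, Rag2 and Ebf1, against 14.4% of all genes. A positive fold change was found in 9 of 9, against 50.7%, and 3 of 9 (Cd79a, Cd79b, Ebf1) had Ti above naive without overlap, against 14.3%. The median fold change of the 9 was 0.70, against 0.01 over all tested genes.

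These values depended on single libraries. Without naive replicate 3 the median of the 9 was 0.31, the fold changes ran from -0.12 for Pax5 to 0.55 for Ms4a1, the lowest adjusted p was 0.236 and no gene was called, when 1.04% of all genes were called higher. Without naive replicate 2, the naive library with the highest level of the 9 genes, 6 were called higher in Ti (Cd79a, Cd79b, Ms4a1, Rag1, Rag2 and Ebf1), against 5.74% of all genes. The count with an unadjusted p under 0.05, 5 of 9 with all libraries, was 2 without Ti replicate 1, 3 without Ti replicate 2, 2 without Ti replicate 3, and 2 without naive replicate 1 or 3. The share of all genes with such a p was not worked out for these fits, so the counts cannot be set against it. The share called in either direction was 0.695, 0.732 and 13.9% without Ti replicates 1, 2 and 3. It was 2.82% without naive replicate 1 and 1.48% without naive replicate 3, against 6.43% with all libraries. Without Ti replicate 3, 8 of 9 fold changes were positive, the lowest being -0.01. Other lists moved with the same library: in naive replicate 3 the osteoblast list stood at -1.58, the mesenchymal list at -1.45 and the erythroid list at -1.09 on the centred log2 scale, beside the -1.45 of the B-lineage genes, and their part in the difference was not tested.

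Hydrogel added to titanium particles. None of the 9 genes passed the test between Ti+I-OG and Ti, and their fold changes went both ways. Rag2 had the largest, at -0.54 (95% interval -1.25 to 0.16, adjusted p = 0.670), followed by Ms4a1 at -0.37 (-1.15 to 0.40, adjusted p = 0.799) and Ebf1 at -0.31 (-0.82 to 0.20, adjusted p = 0.732). On the positive side stood the surrogate light chain, with Igll1 at 0.36 (-0.69 to 1.40, adjusted p = 0.865) and Vpreb1 at 0.28 (-0.61 to 1.18, adjusted p = 0.879). Rag1 had -0.25 (-0.93 to 0.44), Cd79b 0.13 (-0.42 to 0.67), Pax5 -0.11 (-0.68 to 0.47) and Cd79a -0.02 (-0.62 to 0.58), with adjusted p from 0.855 to 0.990. These intervals include differences of more than 0.5 in at least 1 direction for each gene, so the comparison does not show that the levels were equal.

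In this comparison 0 of 9 were called, against 0.0422% of all genes, which is 6 genes. DESeq2, limma-voom and limma on FPKM called 0 of the 9 as well. DESeq2 called 0.0788% of the genes with an adjusted p, and limma-voom 0.0422% of all genes. Limma called 0.0281% on log2(FPKM + 0.1) and 0.0352% on log2(FPKM + 1). An unadjusted edgeR p under 0.05 was reached by 0 of 9, against 4.19% of all genes in the higher and 3.65% in the lower direction. The fold change was positive for 3 of 9, against 49.6%. The median was -0.11, against 0.00 over all genes. Vpreb1 lay higher in Ti+I-OG without overlap (1 of 9, against 7.75%), and Rag2 and Ebf1 lay lower without overlap (2 of 9, against 6.71%). The 3 Ti libraries are those of the comparison with naive, so the 0.85 of Ti over naive and the -0.54 of Ti+I-OG over Ti for Rag2 share their Ti values.

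Hydrogel and titanium particles against untreated bone. Each of the 9 genes had a positive fold change, and the order of the genes differed from that of Ti over naive. The naive libraries are those of the comparison with Ti, so the fold changes of both comparisons share their naive values. Vpreb1 had the largest at 1.06 (SE 0.419, adjusted p = 0.119), then Igll1 at 0.94 (SE 0.483, adjusted p = 0.214), Cd79b at 0.82 (SE 0.251, adjusted p = 0.0618) and Cd79a at 0.74 (SE 0.277, adjusted p = 0.102). Ms4a1 had 0.57 (SE 0.357, adjusted p = 0.298). The smaller values were those of the recombinase and transcription factor genes, with 0.31 for Rag2 (95% interval -0.40 to 1.02), 0.24 for Ebf1 (-0.27 to 0.75), 0.14 for Rag1 (-0.55 to 0.82) and 0.05 for Pax5 (-0.53 to 0.63), and adjusted p from 0.509 to 0.914.

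With edgeR 0 of 9 were called, against 8.26% of all genes (3.84% higher and 4.43% lower in Ti+I-OG). An unadjusted p under 0.05 was reached by 3 of 9, Cd79a, Cd79b and Vpreb1, against 15.6% of all genes in the higher direction, and by 0 in the lower one, against 14.2%. Limma-voom and limma on FPKM called 0, and DESeq2 called Cd79b (adjusted p = 0.0204), against 7.40% of genes called higher by DESeq2. In either direction limma-voom called 6.57% of all genes. Limma called 13% on log2(FPKM + 0.1) and 12.6% on log2(FPKM + 1). Cd79b and Vpreb1 lay higher in Ti+I-OG without overlap, 2 of 9 against 18.7% of all genes. The median was 0.57, against 0.03 over all genes, and 9 of 9 positive fold changes stood against 52.7%.

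The titles state no pairing. Their replicate numbers were taken to pair the libraries of these groups by a rule on correlations, described with the processing. That rule looked at same-numbered libraries only, so it cannot show that they were paired. With the replicate number as a block, 3 of 9 were called higher in Ti+I-OG, Cd79b at 0.88 (adjusted p = 0.0161), Cd79a at 0.78 (adjusted p = 0.0482) and Vpreb1 at 1.18 (adjusted p = 0.0483), against 12.1% of all genes. Without naive replicate 3 none was called, when 0.577% of all genes were called higher. The median was then 0.17 and 4 genes had a negative fold change: Pax5 at -0.24, Rag1 at -0.21, Rag2 at -0.03 and Ebf1 at -0.03. The other 5 stayed positive: Vpreb1 at 0.59, Cd79b at 0.51, Cd79a at 0.43, Igll1 at 0.43 and Ms4a1 at 0.17. The lowest adjusted p of the edgeR test was 0.129, for Cd79b. Without naive replicate 2, 4 were called (Cd79a, Cd79b, Ms4a1 and Vpreb1), against 7.07% of all genes. In the edgeR F test over the 3 groups 0 of 9 passed, against 5.77% of all genes, with unadjusted p = 0.0321 for Cd79a and 0.0165 for Cd79b.

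**Figure D2:**
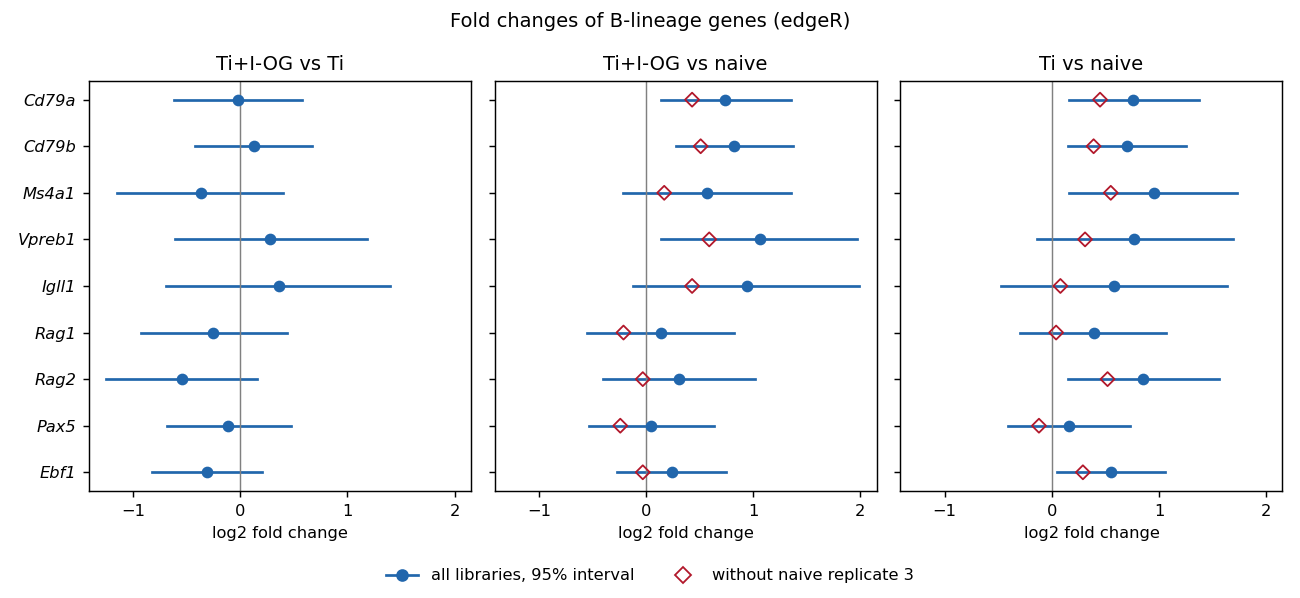
Log2 fold change of the 9 genes in each of the 3 comparisons (horizontal axis), with points for the edgeR estimate and bars for its 95% interval; diamonds give the estimate without naive replicate 3. In the comparisons with naive the diamonds lie nearer to 0 for the receptor chains, at 0.45 for Cd79a in Ti over naive, against 0.76 with all libraries.

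Setting the genes against the B-cell receptor chains of the same library describes their mix rather than the amount of B-lineage RNA. Each of the other 7 genes was divided by the sum of Cd79a and Cd79b in FPKM. All 7 ratios share this denominator and no test was made. Rag2 was 1.58, 1.66 and 1.67% of the sum in Ti+I-OG, 2.76, 2.36 and 2.73% in Ti, and 2.39, 2.66 and 2.28% in naive. Rag1 was 2.71, 2.79 and 2.62% in Ti+I-OG, 3.91, 2.95 and 3.24% in Ti, and 3.90, 4.68 and 3.77% in naive. Relative to the receptor chains, both recombinase genes were thus lower in all 3 Ti+I-OG libraries than in any other library.

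The transcription factors lay lower in Ti+I-OG by the same measure. Pax5 was 4.20, 3.77 and 3.05% of the sum in Ti+I-OG, 4.95, 4.50 and 5.54% in Ti, and 5.61, 5.53 and 6.87% in naive. Ebf1 was 2.54, 1.86 and 2.81% in Ti+I-OG, 3.08, 3.09 and 3.13% in Ti, and 3.80, 3.50 and 3.97% in naive. In all, 4 of 7 genes lay lower in Ti+I-OG than in Ti without overlap, against 4.80% of all genes so divided, and Vpreb1 lay higher, against 5.26%. Between Ti+I-OG and naive the same 4 lay lower, where 46.0% of all genes did (45.3% in CPM, and, with Fcrla, a gene of B cells, as the denominator, 44.8% in FPKM and 41.9% in CPM, with the same 4 genes each time). Between Ti and naive Ebf1 lay lower, where 43.4% of all genes did, as it did with Fcrla (53.8%), and Pax5 and Ebf1 did in CPM (43.7%) and with Fcrla in CPM (53.4%). None of the 7 lay higher in Ti than in naive, against 1.25% of all genes in FPKM, 1.21% in CPM, 0.661% with Fcrla and 0.802% with Fcrla in CPM. In Ti+I-OG over naive none lay higher either, against 1.05% in FPKM, 1.06% in CPM, 0.908% with Fcrla and 0.978% with Fcrla in CPM. Leaving out naive replicate 3, 2 lay lower in Ti over naive and 5 in Ti+I-OG over naive in FPKM, and 0 higher. A library left out can only narrow the range of its group, so such counts can stay or rise but not fall. The shares of all genes were not worked out without that library, so these counts cannot be judged against them. Shares near those of all genes say little about these 7.

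The count of 4 between Ti+I-OG and Ti depended on the unit and on the denominator. In CPM, 3 lay lower, against 4.26% of all genes: Rag2, with 3.05, 2.81 and 2.85% in Ti+I-OG and 4.83, 3.80 and 4.51% in Ti; Rag1, with 13.6, 13.9 and 13.0% in Ti+I-OG and 19.3, 14.7 and 16.1% in Ti; and Ebf1, with 11.2, 8.11 and 12.0% in Ti+I-OG and 13.7, 13.6 and 12.7% in Ti. Pax5, whose implied length varied, overlapped in CPM, with 15.2, 12.0 and 15.8% in Ti+I-OG and 17.1, 13.1 and 17.4% in Ti. With Fcrla as the denominator 1 of 7, Rag2, lay lower in FPKM (against 0.922% of all genes) and in CPM (against 1.20%). Vpreb1 lay higher in CPM (5.54%) and with Fcrla in CPM (15.6%), and Vpreb1 and Igll1 did with Fcrla in FPKM (14.0%). Fcrla was chosen as a denominator because its course was the nearest to that of the 9 genes, after the data were seen. The precursor-stage genes Vpreb1, Igll1, Rag1 and Rag2 together were 52.9, 40.9 and 35.4% of the sum of the receptor chains in Ti+I-OG, 37.6, 36.0 and 39.5% in Ti, and 43.6, 45.5 and 21% in naive, with overlap between all groups.

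**Figure D3:**
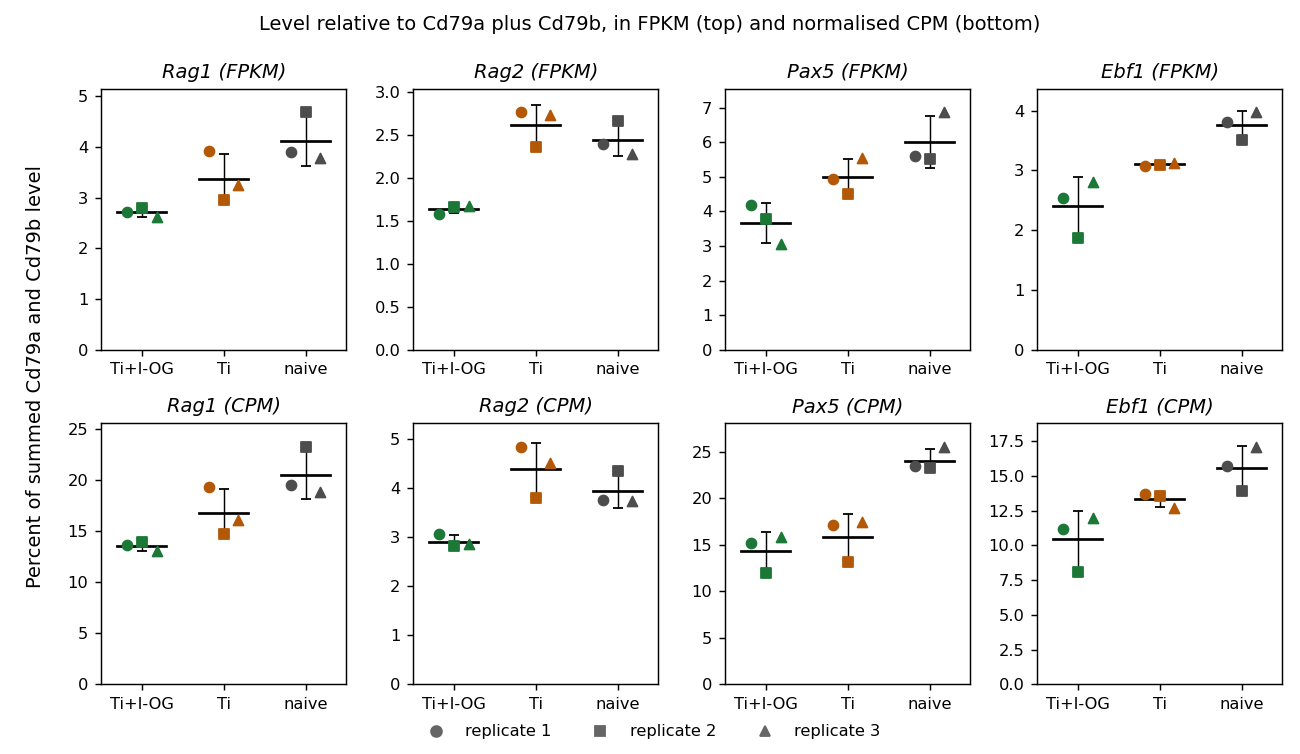
Rag1, Rag2, Pax5 and Ebf1 as a percentage of Cd79a plus Cd79b in each library, by group, from FPKM in the upper row and from normalised CPM in the lower row, with 1 point per library, a line for the mean and a bar for the SD (n = 3). In FPKM the Ti+I-OG points of all 4 genes lie below those of Ti and naive, for Rag2 at 1.58 to 1.67% in Ti+I-OG, while in CPM the Pax5 points of Ti+I-OG and Ti overlap.

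Other genes of the B lineage were read from lists of their own. Among 12 other precursor genes, Sox4, a transcription factor active in early lymphoid cells, rose in Ti over naive (log2 fold change 0.53, SE 0.143, adjusted p = 0.0491), and the median of the list was 0.29. No precursor gene passed in the other comparisons, where the medians were -0.18 for Ti+I-OG over Ti and 0.21 for Ti+I-OG over naive; among these Myb, a regulator of progenitors, had -0.56 in Ti+I-OG over naive (adjusted p = 0.0660). Among 15 mature B-cell genes none passed in Ti over naive, with a median of 0.52, or in Ti+I-OG over Ti, with -0.11, and Cd40, the receptor for T-cell help, rose in Ti+I-OG over naive (0.98, SE 0.268, adjusted p = 0.0469; median of the list 0.41). Without naive replicate 3 no gene of either list passed in the comparisons with naive, and the medians for Ti over naive were 0.09 for precursor and 0.24 for mature B-cell genes.

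The signalling genes of the receptor gave calls in both directions. Of 17, Cd72, a B-cell co-receptor, rose in Ti over naive (0.95, SE 0.212, adjusted p = 0.0264) and in Ti+I-OG over naive (0.86, SE 0.213, adjusted p = 0.0365). Prkcb, a kinase used by B cells and by other blood cells, fell in both (-0.68, adjusted p = 0.0334, and -0.85, adjusted p = 0.0195). Fcgr2b, an inhibitory antibody receptor that myeloid cells also carry, fell in Ti+I-OG over naive (-0.48, adjusted p = 0.0395). The medians of the list were -0.11 for Ti over naive, -0.09 for Ti+I-OG over Ti, where none passed, and -0.16 for Ti+I-OG over naive, and 7 of 17 fold changes were positive in each comparison with naive. Without naive replicate 3, 0 passed in Ti over naive, and Prkcb fell in Ti+I-OG over naive.

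Of 17 other transcription factors of the lineage, many of which other blood cells use too, Ikzf3 (Aiolos) fell in Ti over naive (-0.67, SE 0.170, adjusted p = 0.0410). In Ti+I-OG over naive Gfi1 fell (-0.99, SE 0.257, adjusted p = 0.0402), as did Ikzf1 (Ikaros; -0.56, SE 0.153, adjusted p = 0.0472), and none passed in Ti+I-OG over Ti. The list's medians were -0.01, -0.12 and 0.00 for Ti over naive, Ti+I-OG over Ti and Ti+I-OG over naive. None of the 3 passed without naive replicate 3. The 12 genes that repair the breaks made by Rag1 and Rag2 gave no call in any comparison, with medians of -0.08, 0.08 and 0.03 in the same order, and neither did the 17 proliferation genes, with medians of -0.09, 0.22 and 0.05. These lists, and the T-cell list, gave no call against naive without naive replicate 3 either, with medians for Ti over naive of -0.16 for repair, -0.14 for proliferation and -0.04 for T-cell genes. Exons of Cd72, Fcgr2b, Sox4, Gfi1 and Myb overlap those of other genes, and their values are uncertain to that extent.

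Signals that B-cell precursors receive from the marrow niche were examined as a separate list. Of its 9 tested genes out of 10, 3 rose in Ti over naive: Foxc1, a transcription factor of the reticular cells that house B-cell precursors (1.01, SE 0.196, adjusted p = 0.0173), Kitl, the stem cell factor (0.65, SE 0.146, adjusted p = 0.0267), and Tnfsf13b, the survival factor BAFF (0.60, SE 0.158, adjusted p = 0.0467). Il7, the main growth factor of mouse B-cell precursors, had 0.57 in Ti over naive (adjusted p = 0.380), -0.50 in Ti+I-OG over Ti (adjusted p = 0.757) and 0.07 in Ti+I-OG over naive (adjusted p = 0.925), at group means of 2.79 CPM in Ti+I-OG, 3.98 CPM in Ti and 2.69 CPM in naive. Cxcl12, which holds precursors in the niche, had 0.26 in Ti over naive (adjusted p = 0.461). No niche gene passed between Ti+I-OG and Ti or between Ti+I-OG and naive, and without naive replicate 3 none passed in either comparison with naive. In Ti over naive 5 of the 9 fold changes were positive and 4 negative, with a median of 0.26, or 0.01 without naive replicate 3. The negative ones were Cxcl13 at -0.61, Flt3l at -0.12, Vcam1 at -0.03 and Lepr at -0.01. Il7, Cxcl12 and these 4 genes were named after their values were seen.

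Ebf1 is also used by stromal and fat cells, so their genes were set beside it. Of 13 mesenchymal and adipocyte genes, 6 rose in Ti over naive, among them Col3a1 (3.23, SE 0.388, adjusted p = 0.00213), Lpl (1.53, SE 0.297, adjusted p = 0.0173) and Dcn (1.93, SE 0.440, adjusted p = 0.0286). In Ti+I-OG over naive 4 rose, including Col3a1 at 2.74 (adjusted p = 0.00543), and none passed between Ti+I-OG and Ti. The list summed to 2770 to 4190 CPM in Ti+I-OG, 4670 to 5020 CPM in Ti and 870 to 1870 CPM in naive, with none of its genes at 0, highest in Ti and lowest in naive like the Ebf1 means (21.1, 26.2 and 17.9 CPM in Ti+I-OG, Ti and naive). The means of Cd79a, Ms4a1, Rag1, Rag2 and Pax5 had the same order, so it was not particular to Ebf1. The part of the mesenchymal and adipocyte genes in the Ebf1 values was not tested. Without naive replicate 3, 2 rose in Ti over naive (Dcn and Col3a1) and 1 in Ti+I-OG over naive (Col3a1).

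**Figure D4:**
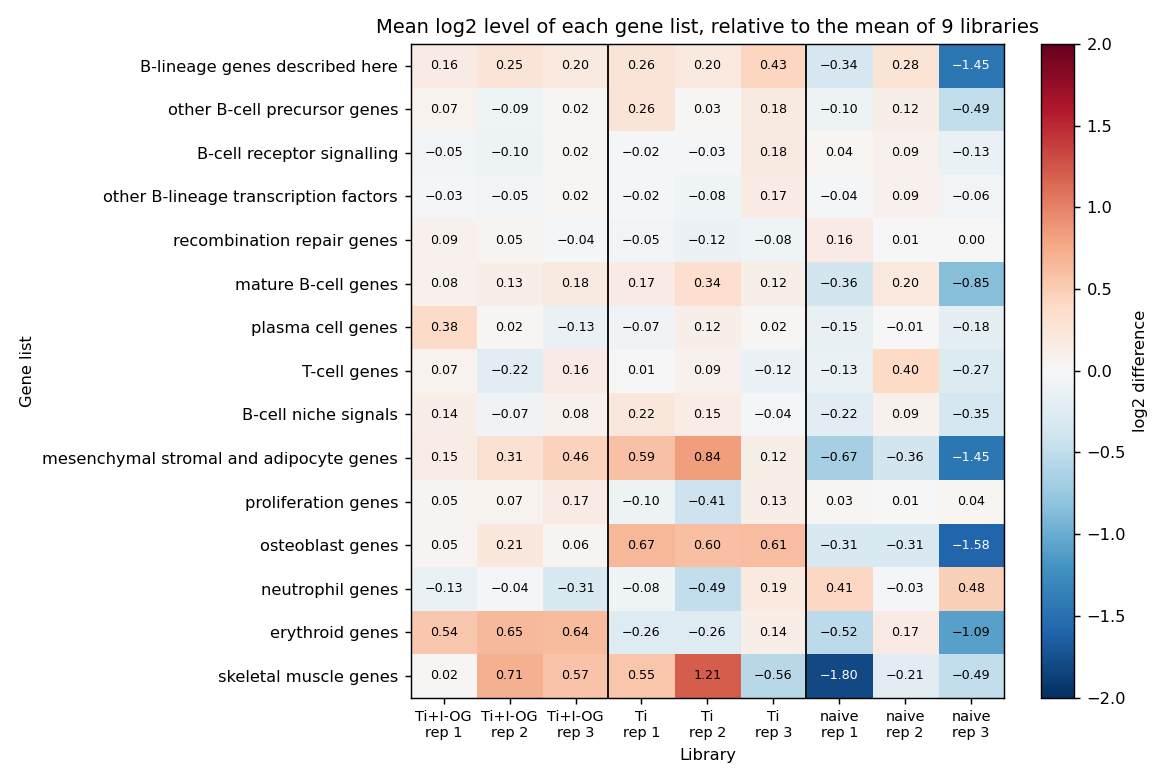
Heat map of the mean centred log2 CPM of the 9 genes and of each other list (vertical) in each library (horizontal). Naive replicate 3 is lowest in the B-lineage genes at -1.45, the mesenchymal list at -1.45 and the osteoblast list at -1.58, but not in the proliferation list at 0.04.

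The genes whose course over the 9 libraries was most like the mean course of the 9 genes came largely from the B lineage as well. Likeness was the mean absolute difference over the 9 libraries between centred log2 CPM values, among 12095 genes with a mean of at least 2 CPM. Among the nearest 8 were Fcrla, an intracellular Fc receptor-like protein of B cells (0.0893), Cpm, which encodes carboxypeptidase M (0.133), Spib, a transcription factor of B and plasmacytoid dendritic cells (0.134), H2-Ob, an MHC class II modulator of B cells (0.142), Niban3 (0.148), Ddah2 (0.151) and Vpreb3, a pre-B-cell protein (0.153). On the same measure Cd79a itself was at 0.129, Cd79b at 0.147 and Igll1 at 0.311. None of these 7 genes passed the test in any comparison, and in Ti over naive their fold changes lay between 0.55 for Cpm and 0.90 for Ddah2. They lay between 0.21 for Niban3 and 0.56 for Ddah2 without naive replicate 3, and again none passed. The genes were picked by their course in these same libraries, so fold changes near those of the 9 genes follow from the choice.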

How the data were processed

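Per the labels' protocols, oligo(dT)-selected RNA was turned into libraries (NEBNext Ultra, unstranded) for Illumina sequencing. The submitters' processing notes name RSEM, fastp, edgeR, DESeq2 and StringTie 1.3.1, with no role or order. Aligner, genome build and annotation: not given in the sources used here. Gene coordinates are therefore left out. The authors deposited an estimated count, which need not be whole, and an FPKM value for each of 22183 genes and 9 libraries. Of these genes 4425 had no count. Gene overlaps were taken from GENCODE M21, in which 22128 of the identifiers occur, and promoters from RefSeq.

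Estimated counts were rounded to whole numbers, filtered with filterByExpr and scaled by TMM in edgeR 4.0.16 (R 4.3.3). A single quasi-likelihood fit to all 9 libraries, with a mean per group and 6 residual degrees of freedom, gave the 3 contrasts, two-sided, with Benjamini-Hochberg adjustment over 14211 genes and a threshold of 0.05. Means are over 3 libraries. Alternatives were other scaling, DESeq2 1.42.0, limma 3.58.1 (voom, and FPKM with a pseudocount of 0.1 or 1), no filter, fits of 2 groups, each library left out and a replicate block. Replicate libraries were compared by chi-square per degree of freedom, which was 13.4 to 138, and all were kept. The count test was tested on simulated data. The floor of 3 counts covers counting error only, since reads without molecular identifiers are not independent molecules.

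Replicate numbers come from the sample titles. Deviations from the group means of same-numbered libraries correlated at 0.20, 0.11 and 0.27 for Ti+I-OG and naive, all above 0.1, so that the numbers were taken to pair these groups. For Ti and naive (-0.02, 0.33 and 0.24) and Ti+I-OG and Ti (0.07, 0.20 and 0.22) they were not. The titles give no pairing or batch. Libraries with different numbers were not compared in this way, so the rule cannot show a pairing. The fit with the block held all 9 libraries.

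The 9 genes and the 14 other lists were chosen with earlier results of these data known. All 9 genes are named. From each list, genes past the threshold are named, at most the 3 with the smallest p in each direction and comparison, or some of those with the smallest p where none passed. A gene that the rules would name is not reported here.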

Additional observations from a re-analysis of the deposited data

How the results depend on the processing

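The number of genes called between Ti and naive was 914 with edgeR, 1817 with DESeq2, 544 and 556 with limma on log2(FPKM + 0.1) and log2(FPKM + 1), 2968 with the replicate block and 357 with only those groups in the fit; leaving out 1 library gave 100 to 1999. Of the 9 B-lineage genes the block called 3 (Cd79a, Cd79b and Ms4a1, against 10.6% of all genes called higher). Leaving out 1 library called 0 to 6, when 0.695 to 13.9% of all genes were called in either direction. Between Ti+I-OG and Ti, 6 genes became 14 with DESeq2 and 9 with the block, and 0 to 5 with 1 library left out; no B-lineage gene was called in any of these. Between Ti+I-OG and naive, 1174 genes became 2354 with DESeq2, 1853 and 1787 on the FPKM scales in the same order, 3450 with the block, 770 with only those groups in the fit and 59 to 2119 with 1 library left out. There the B-lineage calls were 1 with DESeq2, 3 with the block and 0 to 4 with 1 library left out. The shares of all genes called in either direction were 16.1% with DESeq2, among genes with an adjusted p, and 24.3% with the block. With 1 library left out the share was 0.41 to 14.7%. The F test over 3 groups called 820 genes, 3313 with the block and 139 to 1729 with 1 library left out. By the correlation rule the numbers did not pair Ti with naive or Ti+I-OG with Ti, so the block values there rest on a shared number alone. The cause of these shifts was not tested, except that fits without a library hold fewer samples.

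Some fold changes turned their sign. The largest reversed values were those of Pax5 and Rag1 in Ti+I-OG over naive without naive replicate 3. They were -0.24 and -0.21, against 0.05 and 0.14 with all libraries. Pax5 in Ti+I-OG over naive was -0.02 and -0.03 on the log2(FPKM + 0.1) and log2(FPKM + 1) scales. The median of all genes in that comparison was itself -0.16 and -0.12 on these scales. Leaving out 1 library gave ranges of -0.12 to 0.50 for Pax5 in Ti over naive, -0.10 to 0.10 for Cd79a and -0.25 to 0.06 for Pax5 in Ti+I-OG over Ti, and, in Ti+I-OG over naive, -0.21 to 0.64 for Rag1, -0.03 to 0.78 for Rag2, -0.24 to 0.39 for Pax5 and -0.03 to 0.50 for Ebf1. Upper-quartile scaling moved the median of all genes to 0.10 in Ti over naive and 0.12 in Ti+I-OG over naive.

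For the ratios to Cd79a plus Cd79b, all of whose alternatives were chosen after seeing the data, the count lower in Ti than in naive was 1, 2 in CPM, 2 with Fcrla in CPM and 1 to 2 with 1 library left out, and the count higher was 0, or 0 to 1 with 1 left out. Between Ti+I-OG and Ti, the 4 lower became 1 with Fcrla in either unit, and the 1 higher became 2 with Fcrla in FPKM and 1 to 2 with 1 library left out. Between Ti+I-OG and naive the count higher was 0, or 0 to 1 with 1 library left out, and the count lower was 4 with Fcrla, in CPM and with both. For the counts with 1 library left out, the shares of all genes were not worked out. These counts could not fall, since leaving out a library can only narrow the range of its group. All 9 genes were detected in every library, the lowest value being 2.43 CPM for Vpreb1 in naive replicate 3. That is above the floor of 0.121 to 0.185 CPM, which holds no scaling factor. How far depth limits the estimates was not tested.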

Other observations

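Lists of other tissue components held genes that passed the test between treated and naive tibia. Of 10 osteoblast genes 7 rose in Ti over naive, among them Dmp1 (log2 fold change 1.09, adjusted p = 0.00213 in edgeR), Ibsp (1.20, adjusted p = 0.0133) and Phex (1.52, adjusted p = 0.0167), and these 3 passed without naive replicate 3 too. Dmp1 rose in Ti+I-OG over naive (0.69, adjusted p = 0.0152), with and without that library. Of 12 neutrophil genes 3 fell in Ti over naive, Ctsg (-1.07, adjusted p = 0.0239), Prtn3 (-1.35, adjusted p = 0.0265) and Cxcr2 (-0.54, adjusted p = 0.0447), and Cxcr2 fell in Ti+I-OG over naive (-0.96, adjusted p = 0.00732). No neutrophil gene passed in Ti over naive without naive replicate 3, and Cxcr2 did in Ti+I-OG over naive. Of 10 erythroid genes 5 rose in Ti+I-OG over naive, including Hbb-bs (1.58, adjusted p = 0.0337), and 1 (Hbb-bt) did without naive replicate 3. Of 9 plasma cell genes Sdc1, which epithelial and stromal cells also express, rose in Ti over naive (0.95, adjusted p = 0.00753) and in Ti+I-OG over naive (0.93, adjusted p = 0.0106), with and without naive replicate 3. Of 10 skeletal muscle genes Mylpf rose in both (1.75, adjusted p = 0.0389, and 1.67, adjusted p = 0.0423), and in neither without naive replicate 3. No gene of these lists passed between Ti+I-OG and Ti.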
